A study of Mus musculus with 12 samples.

Results

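Rn45s, Mir6236 and Mir6538 are 3 of the 4529 RefSeq non-coding transcripts counted in small RNA libraries from stem-like mouse medulloblastoma cells. They were chosen from their measured shares of the library counts, because these abundant transcripts had been seen to vary between libraries. Their levels are therefore given as a description, without a test. Rn45s is the entry named for the ribosomal RNA precursor, from which the cell cuts the 18S, 5.8S and 28S RNAs, and Mir6236 and Mir6538 are among 1201 entries for miRNA precursors. All 3 had counts in each of the 12 libraries.

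The cells came from cerebellum and carried the genotype Math1-Cre; SmoM2 in every group, including the control that the labels call WT. SmoM2 is an activated Smoothened, which drives Hedgehog signalling, and Math1-Cre acts in the granule neuron lineage. The control group carried the guide sgGal4-4 (4 libraries, numbered 1 to 4). The group labelled Miat knockdown carried sgMiat-6 or sgMiat-96, and the group labelled Mtdh knockdown carried sgMtdh-1 or sgMtdh-2, with 2 libraries for each guide. Libraries are named here by the numbers of guide and library, so that 96-1 is the first sgMiat-96 library. Separate cultures are not mentioned in the labels, so the spread between libraries of a guide, and any p that rests on it, may be technical.

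The 12 libraries differed in depth and in their counts of a targeted RNA. Total counts were 34263 to 65240 in sgGal4, 83544 to 164537 in sgMiat and 23318 to 154111 in sgMtdh. Miat, the long non-coding RNA targeted in 1 group, had 49 and 30 counts in the sgMiat-6 libraries, 0 or 1 in the sgMiat-96 and sgGal4 libraries, and 0 to 2 in the sgMtdh libraries. Its counts were thus highest under a guide meant to lower it. With 0 or 1 counts in the controls, a fall could not have been seen. Whether small RNA counts follow the level of the long transcript was not tested. These counts therefore do not show whether the knockdown worked, and groups are named by guide below. Mtdh is a protein-coding gene and was not analysed here, and neither were protein-coding markers of the cell type. Library 96-1 stood apart for Mir6538 and library 96-2 for Rn45s, and the sgMiat means that rest most on them are given with and without them.

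Ribosomal RNA is transcribed by RNA polymerase I as a long precursor. Small nucleolar RNAs and RNase MRP guide its modification and cleavage into the mature ribosomal RNAs, which make up most of the RNA of a cell. A count on Rn45s can come from the precursor or from a fragment of a mature ribosomal RNA inside it. A miRNA is cut by Drosha and Dicer from a hairpin, and bases 2 to 8 of the mature strand, its seed, pair with target RNAs. Mir6236 and Mir6538 are mouse entries whose functions are little studied.

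The mature strands are shown because both stand apart in base composition from the other miRNAs of the RefSeq table (GRCm38.p6), with the seed in capitals.
miR-6236: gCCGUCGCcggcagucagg
miR-6538: cGCGGGCUccggggcggcg
Each is 19 bases long, against a median of 22 over 1738 mature miRNAs, and 2.99% of the table were no longer than that. G and C made up 78.9% of miR-6236 and 94.7% of miR-6538, against a median of 52.2%, and 98.8% and 99.8% of the table had a lower content. Their seeds, CCGUCGC and GCGGGCU, differ from each other, and 0 other mature miRNAs in the table carried either. An exact search of 141767 GENCODE M21 transcripts found each mature sequence in its own entry alone, with 0 matches on the other strand. Whether the ribosomal precursor contains either sequence was not analysed here, as no sequence of Rn45s was available.

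The mature miR-6236 lies at chr9:110281353-110281371 on the plus strand, at bases 67 to 85 of a locus of 123 bases, chr9:110281287-110281409. That locus overlapped no other gene of the annotation. Its nearest neighbours were Cspg5, 18711 bases before it, and Gm42775, a long non-coding RNA gene 7543 bases after it. The mature miR-6538 lies at chr12:26414970-26414988 on the minus strand. The Mir6538 locus, chr12:26414901-26415010, lies inside Rnf144a, a protein-coding gene on the same strand at chr12:26300964-26415254, and overlaps none of its exons, so it is intronic. The Mir6538 precursor follows because it shows where the mature strand, in capitals, sits in its hairpin.
Mir6538: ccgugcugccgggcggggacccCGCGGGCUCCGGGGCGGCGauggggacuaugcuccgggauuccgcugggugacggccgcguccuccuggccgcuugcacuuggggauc
It is 110 bases long with a G and C content of 75.5%, above 98.6% of 1005 RefSeq mouse hairpins, and the mature strand fills bases 23 to 41. RNAfold gave it a minimum free energy of -51.7 kcal/mol, or -0.47 per base, against a median of -0.406 per base. In that fold 73.7% of the mature bases were paired with bases outside the mature strand, against a median of 81.0% over 1635 mature strands, of which 24.9% had a lower value. No sequence is shown for Rn45s or for the Mir6236 precursor.

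Rn45s was the most abundant transcript in every library. Its share of all counts was 55.3%, 54.0%, 53.0% and 55.4% in sgGal4 libraries 1 to 4. It was 71.5%, 70.2%, 70.3% and 82.7% in 6-1, 6-2, 96-1 and 96-2. It was 66.8%, 74.9%, 76.7% and 63.7% in 1-1, 1-2, 2-1 and 2-2. All 8 libraries with a targeting guide lay above all 4 controls, and 96-2 lay above every other library. The exact binomial interval of library 1 ran from 54.7% to 55.8%, so counting error was small beside the gap between groups. Such intervals cover counting error only.

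Means were 54.4% ± 1.16 in sgGal4, 73.7% ± 6.06 in sgMiat and 70.5% ± 6.28 in sgMtdh (SD, n = 4 each). Without 96-2 the sgMiat mean was 70.7% ± 0.703 (SD, n = 3). The sgMiat and sgMtdh means stood 1.35-fold and 1.30-fold above the control mean, and they differed from each other by less than the SD of either group. Among the 123 transcripts with a mean of at least 10 counts, 4.88% had all sgMiat libraries above all controls in share of all counts. For sgMtdh 7.32% did. Rn45s was counted in both, and because it was chosen on these shares nothing is read from that. The scale matters for every other transcript, since a larger Rn45s share leaves less of a library to the rest.

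**Figure D1:**
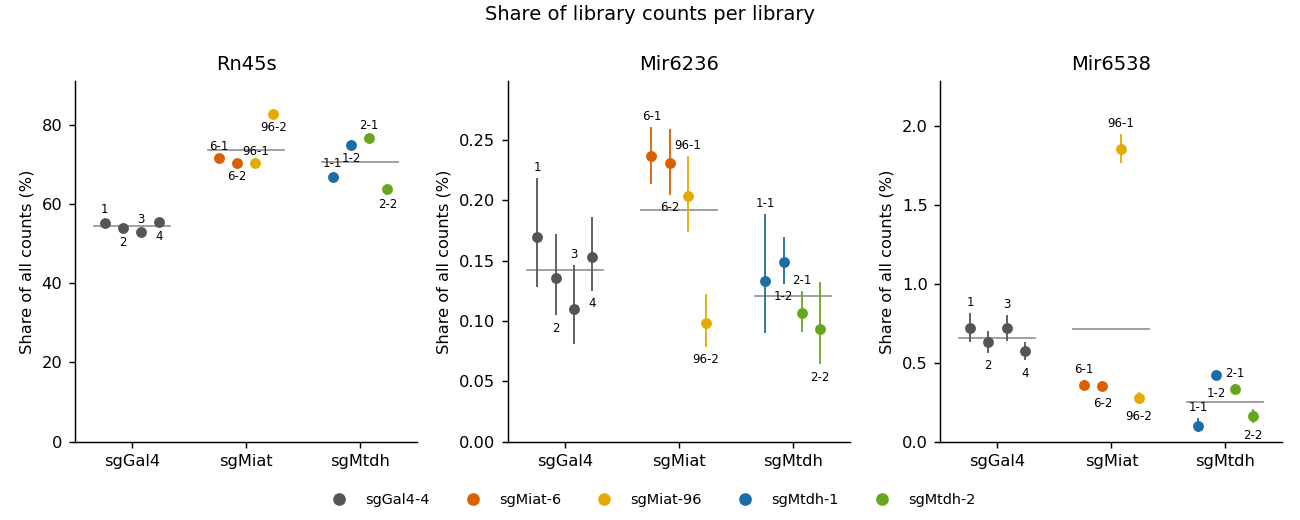
Share of all counts (%, y axis) for Rn45s, Mir6236 and Mir6538 in each of 12 libraries, grouped by target and coloured by guide; points carry the library number, vertical lines are exact 95% binomial intervals of counting error and grey lines are group means. Rn45s lies at 53.0% to 55.4% in sgGal4 and at 63.7% or more elsewhere, while Mir6538 in 96-1 (1.86%) stands apart from the other 11 libraries.

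On the log2 scale, Rn45s had the least variable share of all counts among the 81 transcripts compared. In percent of all counts its share still ran from 53.0% to 82.7%. Over 12 libraries the SD of its log2 share was 0.22. The 81 transcripts had a count in every library and a mean of at least 20 counts. Mir6236, at 0.46, was second lowest. Mir6538 had an SD of 1.10, 21st from the top, against a median of 0.91. The highest library exceeded the lowest 1.56-fold for Rn45s, 2.52-fold for Mir6236 and 18.8-fold for Mir6538. Of the 3 transcripts, Mir6538 was thus the one whose log2 share varied more than that of a typical transcript. A share near its ceiling of 100% has little room to vary on the log scale, which bears on Rn45s.

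Mir6236 was a minor transcript in every library. It had 58, 66, 47 and 100 counts in sgGal4 libraries 1 to 4. It had 389, 280, 170 and 83 counts in 6-1, 6-2, 96-1 and 96-2, and 31, 230, 162 and 32 in 1-1, 1-2, 2-1 and 2-2. Its rank among all transcripts ranged from 22 to 47. As a share of all counts it stood at 0.169%, 0.135%, 0.110% and 0.153% in the controls. In the same order as above it stood at 0.236%, 0.231%, 0.203% and 0.0987% in sgMiat and at 0.133%, 0.149%, 0.107% and 0.0937% in sgMtdh. The sgMiat-6 libraries and 96-1 were above every control, while 96-2 was below all 4, and sgMtdh overlapped the controls.

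The order of the groups for Mir6236 depended on what it was counted against. As a share of all counts the means were 0.142% ± 0.0254 in sgGal4, 0.192% ± 0.0641 in sgMiat and 0.121% ± 0.0250 in sgMtdh (SD, n = 4 each), and every group overlapped every other. With Rn45s set aside, the share of the remaining counts in the controls was 0.378%, 0.294%, 0.234% and 0.344%. The sgMiat libraries held 0.829%, 0.776%, 0.684% and 0.571%, all above the controls, and the sgMtdh libraries held 0.400%, 0.594%, 0.460% and 0.258%. Outside Rn45s the group means were 0.313% ± 0.0628, 0.715% ± 0.113 and 0.428% ± 0.139, so that sgMiat stood 2.29-fold and sgMtdh 1.37-fold above the control. Of 122 transcripts, 13.1% had all sgMiat libraries above all controls on that scale. As a share of miRNA counts alone, Mir6236 held 2.01% ± 0.388 in sgGal4, 7.52% ± 2.55 in sgMiat and 2.83% ± 1.09 in sgMtdh. Counts of all miRNAs together were 2369, 3554, 3016 and 4568 in the controls and 3921, 2960, 3534 and 1407 in sgMiat. In sgMtdh they were 1015, 5388, 7287 and 1793. Relative to library totals, miRNAs thus made up less of every library with a targeting guide than of any control. Part of the difference in this share therefore lies in its reference. The sgMtdh difference from control turned from lower (-0.24 in log2 share of all counts) to higher outside Rn45s (0.41) and within miRNAs (0.43).

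Counted against Rn45s, the mean of Mir6236 was near level between sgGal4 and sgMiat, which rested on 96-2. There were 3.06, 2.51, 2.08 and 2.77 Mir6236 counts per 1000 Rn45s counts in the controls. Libraries 6-1, 6-2, 96-1 and 96-2 had 3.31, 3.28, 2.90 and 1.19, and 1-1, 1-2, 2-1 and 2-2 had 1.99, 1.99, 1.40 and 1.47. Means were 2.60 ± 0.418, 2.67 ± 1.00 and 1.71 ± 0.324 (SD, n = 4 each), with 3.16 ± 0.231 in sgMiat without 96-2 (SD, n = 3). With all libraries the sgGal4 and sgMiat means were closer to each other than the SD of either group. Without 96-2 the sgMiat mean of log2 ratios was 0.29 above the control, and with it 0.06 below (-0.06). All 4 sgMtdh libraries lay below all 4 controls, by 1.52-fold in the mean, and 50.0% of 122 transcripts were likewise lower relative to Rn45s in sgMtdh.

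Mir6538 had more counts than Mir6236 in every library but 1-1. The controls had 247, 307, 307 and 373 counts, and Mir6538 ranked 13th in each of them. The sgMiat libraries had 592, 428, 1551 and 234 counts and the sgMtdh libraries 23, 649, 507 and 55. Its rank ran from 3 to 18 in sgMiat and from 11 to 40 in sgMtdh. As a share of all counts Mir6538 stood at 0.721%, 0.630%, 0.719% and 0.572% in the controls, a narrow band. It stood at 0.360%, 0.353%, 1.86% and 0.278% in sgMiat, where 96-1 was above every other library and the other 3 were below every control. It stood at 0.0986%, 0.421%, 0.335% and 0.161% in sgMtdh, with all 4 libraries below all controls.

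The group means of Mir6538 share were 0.660% ± 0.0726 in sgGal4, 0.712% ± 0.764 in sgMiat and 0.254% ± 0.150 in sgMtdh (SD, n = 4 each). The sgMiat SD was larger than its mean, and 1 library decided the order. The mean share of sgMiat was above the control, its median of 0.356% was below it, and its mean log2 share was lower by 0.38 (-0.38), with a difference of -1.0025 without 96-1. Without 96-1 the mean share was 0.330% ± 0.0452 (SD, n = 3). The sgMtdh mean was 2.60-fold below the control. Of the 123 transcripts, 39.8% also had all sgMtdh libraries below all controls in share of all counts.

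Outside Rn45s, Mir6538 held 1.61%, 1.37%, 1.53% and 1.28% of counts in the controls. It held 1.26%, 1.19%, 6.24% and 1.61% in sgMiat, and 0.297%, 1.68%, 1.44% and 0.443% in sgMtdh. On this scale the sgMiat-6 libraries were just under the lowest control, 96-2 was level with the highest, and the sgMtdh libraries fell on both sides of the control range. Within miRNA counts 96-1 was further apart, with Mir6538 at 43.9% against 9.35% ± 1.12 in the controls. The sgMiat mean outside Rn45s was 2.57% ± 2.45 (SD, n = 4) with 96-1 and 1.35% ± 0.227 (SD, n = 3) without it, on either side of the control mean of 1.45%. Within miRNA counts it was 22.5% ± 14.3 with 96-1 and 15.4% ± 1.12 without it, and the sgMtdh mean was 6.08% ± 4.47. The miRNA counts used as the reference made up less of the sgMiat and sgMtdh libraries than of the controls.

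**Figure D2:**
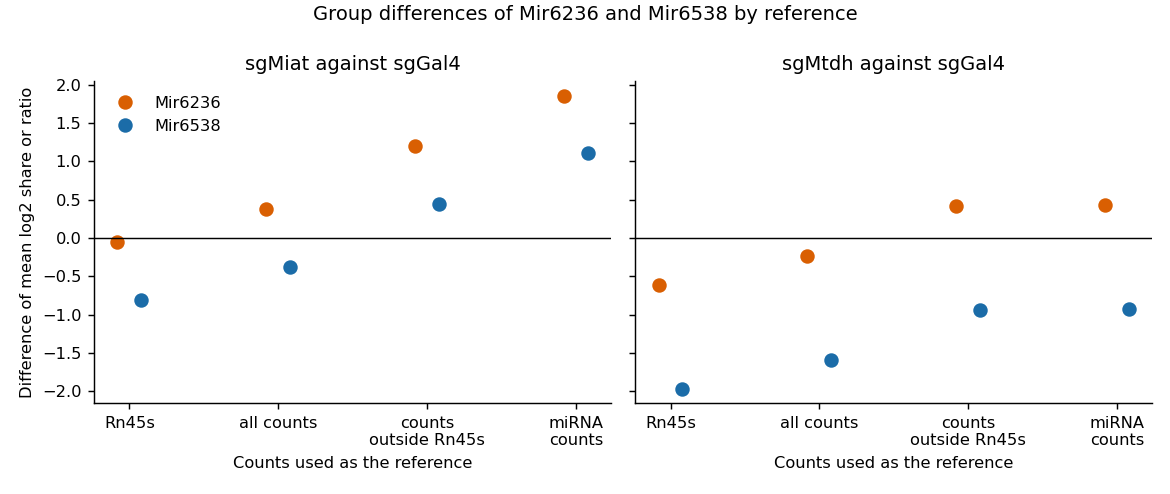
Difference of mean log2 level from sgGal4 (y axis, log2) for Mir6236 and Mir6538 in sgMiat (left) and sgMtdh (right), with Rn45s counts, all counts, counts outside Rn45s or miRNA counts as the reference (x axis). Points above the line at 0 are higher than control. Mir6236 in sgMtdh lies below 0 against all counts (-0.24) and above it outside Rn45s (0.41). Mir6538 in sgMiat moves from -0.38 against all counts to 1.10 against miRNA counts. The value of 1.10 includes 96-1, where Mir6538 itself was 43.9% of the miRNA counts, and is lower without that library. The sgMiat point of Mir6538 outside Rn45s (0.45) includes 96-1 and is -0.11 without it.

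Libraries of the same guide differed for Mir6538 more than for Mir6236 with 3 of the 5 guides, sgMiat-96, sgMtdh-1 and sgMtdh-2. The 4 control libraries spread more for Mir6236, from 0.234% to 0.378% outside Rn45s, than for Mir6538, from 1.28% to 1.61%. Between the sgMiat-6 libraries both were close outside Rn45s, with log2 ratios of the first to the second library of 0.10 for Mir6236 and 0.09 for Mir6538. Between the sgMiat-96 libraries Mir6538 was 3.88-fold higher in 96-1, the widest gap of 80 transcripts, whose median absolute log2 ratio was 0.48. Mir6236 differed there by a log2 ratio of 0.26. In sgMtdh, Mir6538 was 5.64-fold higher in 1-2 than in 1-1 and 3.25-fold higher in 2-1 than in 2-2, the 5th and 14th widest gaps. Mir6236 had log2 ratios of -0.57 and 0.84 in the same pairs.

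Depth moved with these gaps inside sgMtdh. Libraries 1-2 and 2-1 held 154111 and 151309 counts, and 1-1 and 2-2 held 23318 and 34151. Both deeper libraries had the higher share of Rn45s and the higher level of Mir6538. The controls held 34263 to 65240 counts, with Mir6538 at 1.28% to 1.61% outside Rn45s, and 96-1 and 96-2 held 83544 and 84133 counts. The part of depth in the Mir6538 values was not tested. At 23 counts, the exact interval of the Mir6538 share in 1-1 ran from 0.0625% to 0.148%, below the share of each other library.

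**Figure D3:**
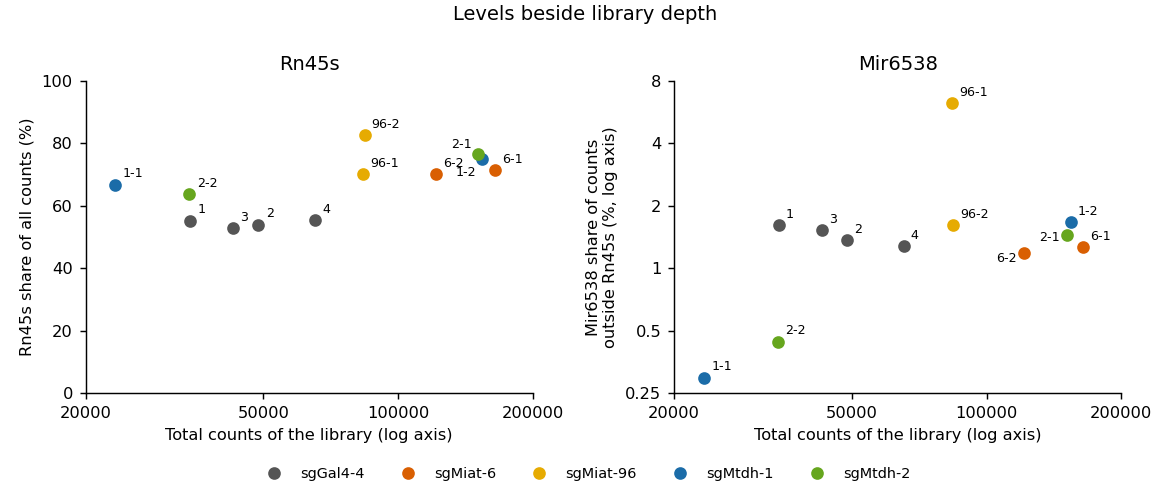
Rn45s share of all counts (%, left y axis) and Mir6538 share of counts outside Rn45s (%, right y axis, log axis) against the total counts of each library (x axis, log axis); points are the 12 libraries, labelled by number and coloured by guide. The 2 shallow sgMtdh libraries are lowest for Mir6538, at 0.297% (1-1, 23318 counts) and 0.443% (2-2, 34151 counts). The sgGal4 libraries, at 34263 to 65240 counts, lie at 1.28% to 1.61%.

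Per length, Rn45s and Mir6538 were of the same order in the controls. Lengths implied by the deposited FPKM were 5833 bases for Rn45s, 123 for Mir6236 and 110 for Mir6538. The full mouse precursor is longer than the Rn45s entry, and which portion the entry holds was not analysed here. By FPKM, which is per base, the level of Mir6538 was 64.4% ± 7.74 of that of Rn45s in sgGal4, 52.8% ± 58.3 in sgMiat and 18.6% ± 9.83 in sgMtdh (SD, n = 4 each). Without 96-1 the sgMiat level was 23.7% ± 5.10 (SD, n = 3). Library 96-1 was at 140%, the only one of the 12 in which Mir6538 exceeded Rn45s per base, and the others ran from 7.83% to 71.9%. Mir6236 was at 12.3% ± 1.98, 12.7% ± 4.76 and 8.12% ± 1.54 of the Rn45s level per base, and its range over all libraries was 5.66% to 15.7%.

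The ratio of Mir6538 to Rn45s separated sgMtdh from the controls most widely. There were 13.04, 11.7, 13.6 and 10.3 Mir6538 counts per 1000 Rn45s counts in the controls. The sgMiat libraries had 5.03, 5.02, 26.4 and 3.36, and the sgMtdh libraries 1.48, 5.63, 4.37 and 2.53. All sgMtdh libraries were below all controls, and so were all sgMiat libraries but 96-1. Means were 12.1 ± 1.46, 9.96 ± 11.0 and 3.50 ± 1.85 (SD, n = 4 each), which put sgMtdh 3.47-fold below the control. Without 96-1 the sgMiat mean was 4.47 ± 0.962 (SD, n = 3). Over 122 transcripts, 50.0% had all sgMtdh libraries and 42.6% all sgMiat libraries below all controls relative to Rn45s. Against control the mean log2 ratio differed by -0.81 in sgMiat, and by -1.46 without 96-1. In sgMtdh it differed by -1.96, with -2.25 to -1.61 when single libraries were left out.

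Mir6538 and Mir6236 did not keep a fixed proportion. The controls had 4.26, 4.65, 6.53 and 3.73 Mir6538 counts for each Mir6236 count. The sgMiat libraries had 1.52, 1.53, 9.12 and 2.82, and the sgMtdh libraries 0.742, 2.82, 3.13 and 1.72. The sgMiat-6 libraries had nearly the same ratio, at less than any control, and 96-1 had the highest of all. Means were 4.79 ± 1.22, 3.75 ± 3.64 and 2.10 ± 1.09 (SD, n = 4 each), and 1.96 ± 0.747 in sgMiat without 96-1 (SD, n = 3). The highest library exceeded the lowest 12.3-fold for this ratio, 17.9-fold for Mir6538 to Rn45s and 2.77-fold for Mir6236 to Rn45s.

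Counting error was small beside the spread of the Mir6538 to Rn45s ratio in sgMiat and sgMtdh, and less so in the controls. In sgMiat the SD of the log2 ratio of Mir6538 to Rn45s was 1.32, against 0.065 from counting alone (the median over its libraries), and in sgMtdh it was 0.86 against 0.13. In the controls it was 0.18 against 0.083. The counting SD of this ratio was largest in the shallow library 1-1, at 0.30. For Mir6236 to Rn45s the SD was 0.24 against 0.18 in sgGal4 and 0.28 against 0.18 in sgMtdh. The deeper sgMtdh libraries still had counting intervals that did not overlap, 1.74 to 2.27 per 1000 Rn45s counts in 1-2 and 1.19 to 1.63 in 2-1. In sgMiat it was 0.71 against 0.099, where 96-2 had the low ratio.

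**Figure D4:**
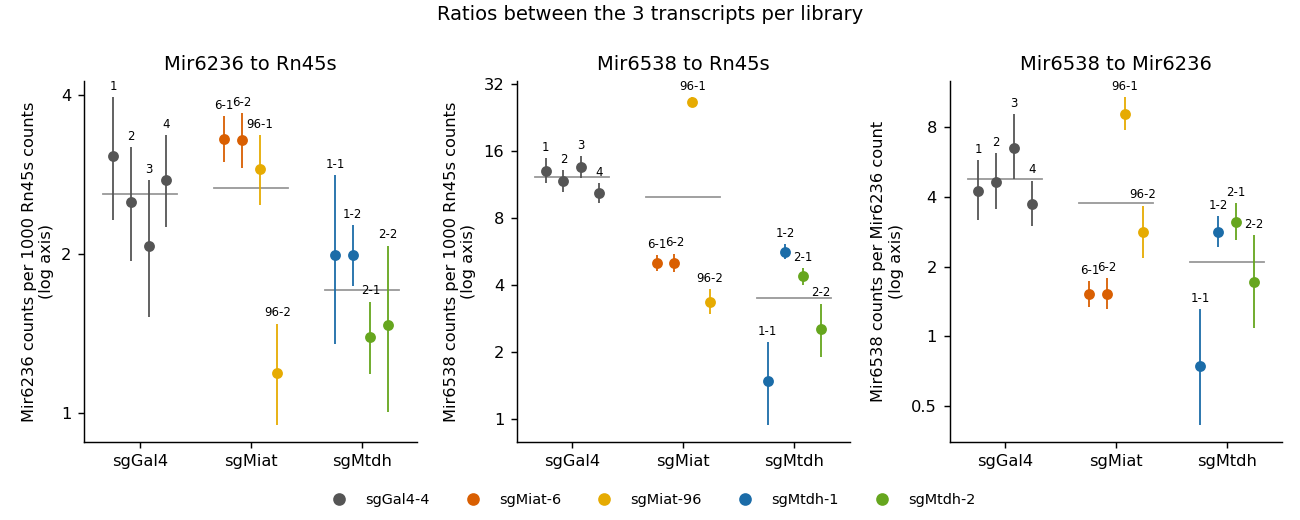
Ratios of counts per library on log axes: Mir6236 per 1000 Rn45s counts (left), Mir6538 per 1000 Rn45s counts (middle) and Mir6538 per Mir6236 count (right), grouped by target and coloured by guide; vertical lines are exact 95% intervals of counting error and grey lines are group means. The sgMtdh libraries lie below all controls in the left and middle panels, and 96-1 is the highest library in the middle (26.4) and right (9.12) panels.

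Mir6236 had one of the most constant ratios to Rn45s, and Mir6538 did not. Likeness was measured as the SD over 12 libraries of the log2 ratio of a transcript to Rn45s, where a low value means a near constant proportion. Among 80 other transcripts the lowest SDs were those of Mir677 (0.45), Mir6236 (0.51) and Tug1 (0.58), a miRNA precursor, the member described above and a long non-coding RNA. The median was 1.02. Mir6538 was 57th, at 1.18. The ratio cancels the depth of the library, but all ratios in this ranking share the Rn45s counts. A low SD does not by itself show that transcripts rose and fell together. The log2 shares of Mir6236 (SD 0.46) and Rn45s (SD 0.22) each varied less than their log2 ratio did.

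Seen from Mir6236, the closest transcripts were Gm4566 (0.47), Rn45s (0.51) and the small nucleolar RNA Snord32a (0.53), and Mir6538 was 49th at 1.01. Seen from Mir6538, no transcript kept a near constant ratio. The log2 share of Mir6538 itself had an SD of 1.10, and that spread enters each of its ratios. The lowest SDs were those of Snord82 (0.82), Gm4566 (0.84) and Mir181b-2 (0.85), against a median of 1.23. Mir6236 was 17th and Rn45s 34th in that ranking.

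**Figure D5:**
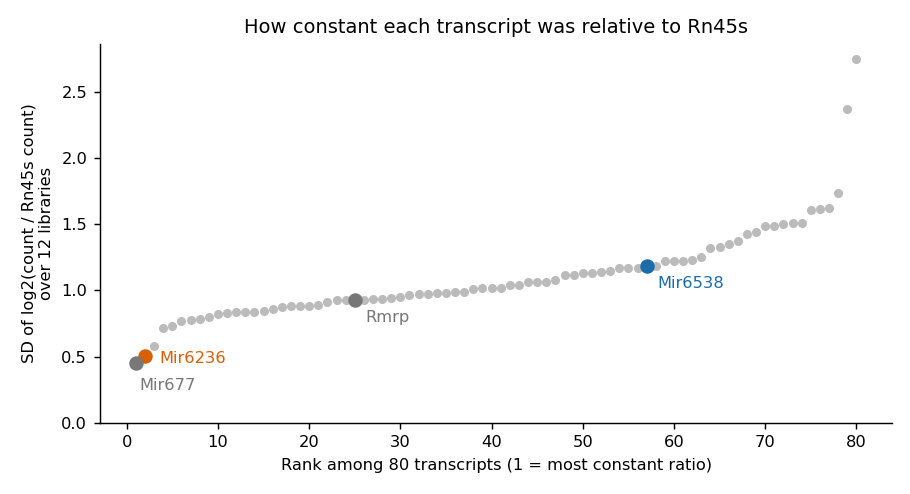
SD over 12 libraries of log2(count / Rn45s count) (y axis) for 80 transcripts in order of rank (x axis, rank 1 has the most constant ratio); coloured or enlarged points are Mir677, Mir6236, Rmrp and Mir6538. Mir6236 is second at 0.51 and Mir6538 is 57th at 1.18.

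The RNAs that process the ribosomal precursor were looked at as a list beside it. Of 16 symbols in that list (RNase MRP RNA and the U3, U8, U13, U14, U17 and U22 small nucleolar RNAs), 6 were in the table and 2 had counts. Snord22, the U22 RNA, had 0 to 10 counts in a library. Rmrp, the RNA of RNase MRP, which cuts the precursor ahead of the 5.8S RNA, was the second most abundant transcript at a mean of 8.46% of counts. Of 8 further ribosomal RNA symbols 1 was in the table, Rn4.5s, with 0 to 2 counts.

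Rmrp held 13.3% ± 0.464 of all counts in sgGal4, 5.50% ± 1.84 in sgMiat and 6.58% ± 1.76 in sgMtdh (SD, n = 4 each). Per 1000 Rn45s counts it had 245 ± 13.1, 76.3 ± 28.9 and 95.4 ± 33.0. All 8 libraries with a targeting guide were below all 4 controls on both scales. So were 31.7% of 123 transcripts in sgMiat and 39.8% in sgMtdh by share of all counts, and 42.6% and 50.0% of 122 relative to Rn45s. Rmrp was 25th in likeness to Rn45s, with an SD of 0.93.

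On the scale of an edgeR fit over 147 transcripts and 12 libraries, with TMM factors that set the median transcript near level, Rn45s was higher in both groups than in control. The fitted log2 fold changes in sgMiat were 1.35 for Rn45s (SE 0.22), 1.25 for Mir6236 (SE 0.35) and 0.83 for Mir6538 (SE 0.55), beside a median of 0.18 over all transcripts. In sgMtdh they were 1.20 (SE 0.22), 0.57 (SE 0.34) and -0.44 (SE 0.55), beside a median of 0.01. Between sgMtdh and sgMiat they were -0.15 (SE 0.22), -0.68 (SE 0.34) and -1.27 (SE 0.56). The first and second sets share their control libraries. No p is given for these transcripts, which were chosen from the same counts. Their SEs were derived from the F statistic of the fit and serve as a description, not as a test.

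The call rate of that fit was 12.9% of transcripts for sgMiat against sgGal4 (15 higher and 4 lower at an adjusted p of 0.05), 10.9% for sgMtdh against sgGal4 (12 higher, 4 lower) and 4.08% for sgMtdh against sgMiat (2 higher, 4 lower). All counts of calls in this report cover every transcript tested, with the 3 members among them. They are therefore not a background free of the members. Rmrp was not called, with a log2 fold change of -0.45 (SE 0.20, edgeR adjusted p = 0.175) in sgMiat and -0.26 (SE 0.20, edgeR adjusted p = 0.446) in sgMtdh. Without TMM factors, on library totals, Rmrp was called lower in both, by -1.27 (edgeR adjusted p = 7.25e-04) and -1.003 (edgeR adjusted p = 0.00353). Over all alternatives tried its adjusted p from edgeR or DESeq2 ran up to 0.537 in sgMiat and 0.698 in sgMtdh. It was also called lower in sgMiat with 1 term per guide and without sgMiat-6, sgMtdh-1 or sgMtdh-2 (edgeR adjusted p = 0.0199 to 0.0407). Scaling by library totals moved the median of all transcripts to -0.66 in sgMiat and -0.82 in sgMtdh, and the calls to 6 higher and 27 lower and to 7 higher and 39 lower.

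The direction of some fitted values depended on the scaling or on 1 library. Mir6236 in sgMtdh turned from 0.57 to -0.22 on library totals. Mir6538 in sgMiat turned from 0.83 to -0.18 when 96-1 was left out. In these bulk samples fewer cells of a kind and less RNA per cell cannot be told apart.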

How the data were processed

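Small RNA libraries of 3 groups of 4 were analysed. For each RefSeq non-coding transcript the authors deposited a raw count, with an FPKM value, used here for levels per length, and a TPM value, which was not used, per the file headers. FPKM matched counts scaled by transcript length and by the total of the table, with whole implied lengths (within 0.01) for 100% of transcripts. The submitters' processing notes name STAR, GRCm38 and mm10, without a version. The sources used here do not give the counter, the trimming or how reads with more than 1 position were treated. Such reads could be shared between Rn45s copies and other entries.

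Members and gene lists were chosen with earlier results of these data known. Of the 4529 transcripts, 172 repeat another of the same symbol (1.30% to 3.47% of counts) and were counted once in the comparisons. No libraries of a guide were duplicates, since chi-squared tests found each pair to differ beyond sampling noise (lowest chi-squared per degree of freedom 2.91). Shares and ratios carry exact 95% Clopper-Pearson intervals. Likeness used transcripts with a mean of at least 20 counts and a count in every library, non-overlap those with a mean of at least 10. The named transcripts were the 3 members, list members with a mean of at least 10 counts, and the 3 most alike to each member.

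edgeR 4.0.16 in R 4.3.3 fitted 147 transcripts that passed filterByExpr, with TMM factors (0.592 to 1.63), 1 term per group and a quasi-likelihood test. Benjamini-Hochberg adjustment was used within each contrast at 0.05, two-sided. The common dispersion was 0.249. The fit was first run on simulated counts with known changes. Those counts had a lower dispersion than these data and no shift of Rn45s between groups. That run therefore gives no error rate for these data. Alternatives were other scalings, DESeq2 1.42.0, no filter, 1 term per guide, a replicate block, libraries or guides left out, medians, summed counts and other references for shares. Python 3.11.15, pandas 2.3.3, scipy 1.17.1, matplotlib 3.10.9 and RNAfold 2.7.2 were used. Sequences came from RefSeq (GRCm38.p6), which held the Mir6538 precursor and both mature strands, and positions from GENCODE M21. A planned list of hairpins matching ribosomal RNA was not analysed here.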

Additional observations from a re-analysis of the deposited data

Results flagged for a closer look

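Of 24 sets of 4 libraries examined, 5 held a library far from the others, all in sgMiat. These are the shares and ratios from which the transcripts were chosen, so this is a description and not a test. Library 96-2 had an Rn45s share of 82.7%, and the nearest of the group was at 71.5%. The other 4 were Mir6538 in library 96-1 and rest on the same 1551 counts. Its share of all counts was 1.86% (nearest 0.360%) and its share outside Rn45s was 6.24% (nearest 1.61%). Its count per 1000 Rn45s counts was 26.4 (nearest 5.03), and its count per Mir6236 count was 9.12 (nearest 2.82). The causes were not tested.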

How the results depend on the processing

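Values are log2 differences unless named as calls. Apart from single libraries left out, 73 shares, ratios and counts of calls kept their value within the spread of the libraries (calls, within 1.5 times), 16 moved by more and 9 changed sign. Of fitted changes of single transcripts 118 kept, 17 moved, 3 changed sign and 6, of Rmrp, became calls. With counts summed, the Rn45s share in sgMtdh against sgMiat went from -0.064 to 0.021. Outside Rn45s and within miRNA counts, the Mir6236 share against control was 1.20 and 1.86 in sgMiat and 0.41 and 0.43 in sgMtdh, and within miRNA counts -1.42 for sgMtdh against sgMiat. The Mir6538 share in sgMiat was 0.45 and 1.10 on those scales, and -0.11 and 0.72 with 96-1 also left out, an alternative chosen after seeing the data. The ratio of Mir6236 to Rn45s in sgMiat was 0.23 by medians and 0.10 with summed counts, and the ratio of Mir6538 to Mir6236 in sgMtdh against sgMiat was 0.085 by medians. Calls on library totals were 33 (sgMiat) and 46 (sgMtdh), with 1 of the processing RNAs, Rmrp, called lower in each. With 1 term per guide they were 33, 27 and 24 for sgMtdh against sgMiat, with 1 processing RNA called for sgMiat. DESeq2 called 18 for sgMtdh against sgMiat, and without a filter 10 were called for sgMtdh. Without the sgMiat-96 libraries the fitted Mir6538 change in sgMiat was -0.21 and that of Rmrp in sgMtdh against sgMiat was -0.20. On library totals Mir6236 in sgMtdh was at -0.22. The causes were not tested.

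With the last number of the library name as a replicate block, calls were 1 (sgMiat), 0 (sgMtdh) and 2 (sgMtdh against sgMiat). The labels do not give these numbers as a pairing. Deviations from the group mean correlated above 0.1 in 2 of 16 same-numbered pairs and in 8 of 32 others. Those deviations still hold the differences between guides of a group, so they cannot show whether same-numbered libraries belong together.

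With single libraries left out, calls were 9 to 28, 8 to 18 and 2 to 15. The ratio of Mir6236 to Rn45s in sgMiat was -0.20 to 0.29 (0.29 without 96-2, 0.02 without control 1). The fitted changes were -0.18 to 1.05 for Mir6538 in sgMiat and -0.37 to 0.076 for Rn45s in sgMtdh against sgMiat, the latter at 0.076 without 96-2. Total counts of 23318 and 34151 limit the shallow sgMtdh libraries, where Mir6538 had 23 and 55 counts.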
